A study of Mus musculus with 24 samples.

Results

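Control brain pericytes of the mouse embryo were compared between embryonic day E11.5 and embryonic day E13.5, gene by gene. The members are the 20019 genes that the authors' deposited tables list at both stages with a control mean of 10 or more at either stage, out of 25471 genes in all tables of the series. They rest on 8 of the 24 samples, 4 control samples at E11.5 and 4 at E13.5. The cells were sorted from embryonic brain, and the labels call them pericytes and, as a cell type, mesenchymal cells. Every control carried Pdgfrb-Cre, which is active wherever Pdgfrb is, together with the reporter Zs/+ and Alk5(flox/+), so the controls already carry 1 floxed copy of Alk5, the older name of the TGF-beta receptor gene Tgfbr1. The mutants named beside them carried Pdgfrb-Cre, Alk5(flox/flox) and Zs/+, with 4 samples at each stage. Whether samples came from separate animals, litters or pools is not stated, so every p-value reflects no more than the spread among the sequenced samples, which may be technical.

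Pericytes are the mural cells that wrap the smallest vessels, share a basement membrane with the endothelium and depend on PDGF-B signalling through PDGFRB. In the head they arise largely from neural crest mesenchyme, a lineage that also gives rise to meninges, cartilage and bone, and Pdgfrb is active in much of that mesenchyme as well as in pericytes. During these days of gestation vessels grow into the brain wall while the surrounding mesenchyme begins to lay down skull and meningeal tissue.

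The change of a gene is given as the log2 of its E13.5 control mean over its E11.5 control mean, with the median over all members set to 0, because the 2 tables were normalized separately. Before this centring the median was 0.43. Each mean is the authors' group mean of normalized reads, and values per sample were not analysed here. The standard error (SE) printed is the largest that the authors' ratios and p-values allow. A gene was called when its centred change was at least 1, a 2-fold difference, and its adjusted p was under 0.05 (two-sided normal test with that SE, Benjamini-Hochberg adjustment over all members). Stage and any batch of library preparation cannot be told apart, and in sorted bulk samples fewer cells of a type and less RNA per cell cannot be told apart.

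Of the members, 3683 were called higher at E13.5 (18.4%) and 2734 lower (13.7%), together 32.1%, so that 57.4% of the called genes were higher. That split depended on the centre: it was 37.1% higher with the summed means of the stages set equal, which moves the centre by 0.29, 77.3% with the median of a housekeeping list set to 0, which moves it by -0.32, and 67.6% at a log2 change of at least 2. The middle of the distribution ran from -0.68 at the 25th percentile to 0.82 at the 75th, and the outer values from -1.66 at the 5th to 2.13 at the 95th. The median SE was 0.27. In the mutants, whose libraries are separate from the controls, 3682 of the 3683 higher genes were also above 0 and 3488 were at 1 or more, while 2723 of the 2734 lower genes were below 0 and 2471 at -1 or less. The mutants share with the controls the stage, the table and anything that was done to all libraries of a stage. At the edge of the level rule, Gm16196 was just inside, with means of 10.011 and 4.90, and C130073E24Rik just outside, with 9.998 and 8.09.

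**Figure D1:**
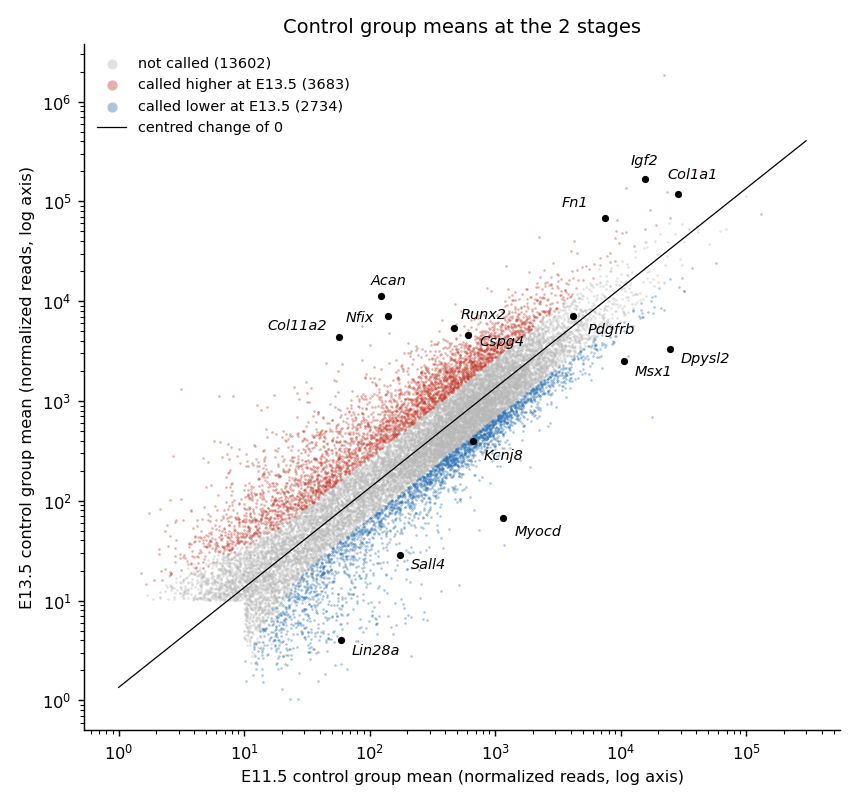
Each point is 1 of the 20019 members, with its E11.5 control group mean on the horizontal axis and its E13.5 control group mean on the vertical axis (normalized reads, log axes). The line marks a centred change of 0, and Acan, Col11a2 and Nfix stand far above it while Myocd, Lin28a and Dpysl2 stand far below it.

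Several technical measures moved with stage. The ribosomal RNA gene CT010467.1 took 0.145% of the summed E11.5 control means and 7.23% of the E13.5 ones. Transcript length, from the longest GENCODE transcript of each gene, moved with the change: with the members in 10 equal groups, the median was -0.29 in the group of shortest transcripts and 0.92 in that of the longest, where 45.7% were called higher and 2.46% lower. Over 10 groups by transcript GC content it moved from -0.30 to 0.18. Short annotated intronic RNAs and unverified single-exon loci were lower as groups, with 30 of 70 sense intronic genes and 310 of 847 loci awaiting experimental support called lower, while the median of the 14050 protein-coding genes was 0.05. Xist was listed at E13.5 alone, with a mean of 36145 in E13.5 controls and 5.73 in E13.5 mutants, so its E11.5 level was not analysed here. The sex of the samples is not given at either stage. Xist RNA marks female cells, so at E13.5 controls and mutants differed in this marker of sex, and at E11.5 the composition is unknown. The 810 X-linked members had a median of 0.02. The part of these measures in the results was not tested, so for the pathway groups the median is also given with the centre set within 100 bins of length and GC, called length-matched, an alternative chosen after seeing the data.

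**Figure D2:**
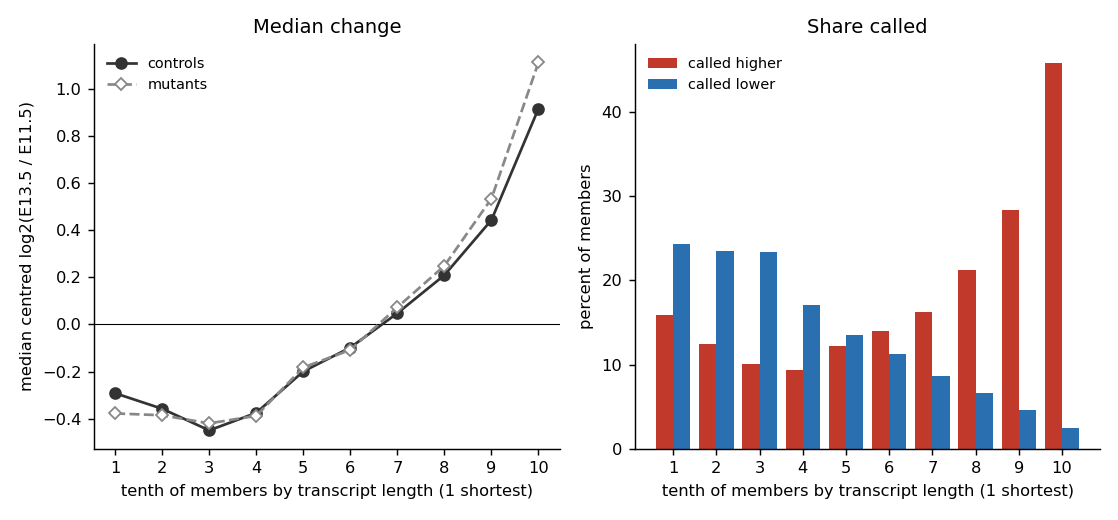
The left panel gives the median centred log2 change in 10 equal groups of the members by transcript length, for controls and mutants, and the right panel the percent of each group called higher or lower in controls. The control median goes from -0.29 in the shortest group to 0.92 in the longest, and that of the mutants from -0.38 to 1.12.

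Pericyte markers were called in both directions. Of 29 measured, 5 were called higher and 9 lower, with a median of -0.17, or -0.34 with 3 higher and 8 lower when length-matched. These counts moved with the setting: 8 were higher and 4 lower with the housekeeping median at 0, and 10 higher and 3 lower in the mutant libraries, where the median was 0.53. Their median rank in the controls was the 76.4th percentile of members at E11.5 and the 77.7th at E13.5. Pdgfrb itself, the gene whose regulatory sequence drives Cre, had a mean of 4200 at E11.5 and 7160 at E13.5, a centred change of 0.34 (SE 0.22) that did not pass. Rgs5, a regulator of G-protein signalling that marks brain pericytes, had means of 2034 and 2933 and a change of 0.10 with an SE of 0.63. Abcc9, the sulfonylurea receptor subunit of the vascular KATP channel, went from 639 to 1342, a change of 0.64. Its partner Kcnj8, the pore subunit, was lower, with means of 662 and 393 and a change of -1.19 (SE 0.23).

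Within the marker list the highest change was that of Cspg4, which encodes the NG2 proteoglycan of mural cells and their precursors. Its mean was 611 at E11.5 and 4562 at E13.5, a change of 2.47 (SE 0.41) that was 0.99 when length-matched. The transcription factor gene Tbx2 went from 126 to 920, a change of 2.43, and Notch3, the mural Notch receptor, from 1366 to 4595, a change of 1.32 that was -0.16 when length-matched. On the other side stood Rgs4, from 825 to 324, Vtn, which encodes vitronectin, from 3508 to 1779, Ndufa4l2 from 201 to 89.7 and the purinergic receptor gene P2ry14 from 109 to 47.7. Their changes lay between -1.41 and -1.78. The Cre driver gene Pdgfrb and the marker Rgs5 stood between these 2 sets and did not pass.

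Genes of the smooth muscle contractile apparatus were lower or not called, except Myh11. Of 17, 1 was higher and 3 lower, against 18.4% and 13.7% of all members, so the share of lower genes was near that of all members. The median was -0.39, and -0.40 when length-matched. Myocd, the coactivator of serum response factor that switches on smooth muscle genes, had the largest drop of all named genes: its mean was 1163 at E11.5 and 67.2 at E13.5, a centred change of -4.54 (SE 0.69, adjusted p = 4.8e-10). It lies on chromosome 11 at 65176561 to 65269989, minus strand (mm10). Myl9, a myosin light chain, went from 6155 to 3400 and Lmod1, an actin nucleator of smooth muscle, from 231 to 106. Myh11, the smooth muscle myosin heavy chain, was low at both stages, 31.3 and 84.6, and its call as higher, at 1.00, turned to -0.19 when length-matched. Acta2, smooth muscle actin, had means of 1549 and 2611 and a change of 0.32 (SE 0.61), and Tagln -0.67 (SE 0.50), neither of which passed.

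**Figure D3:**
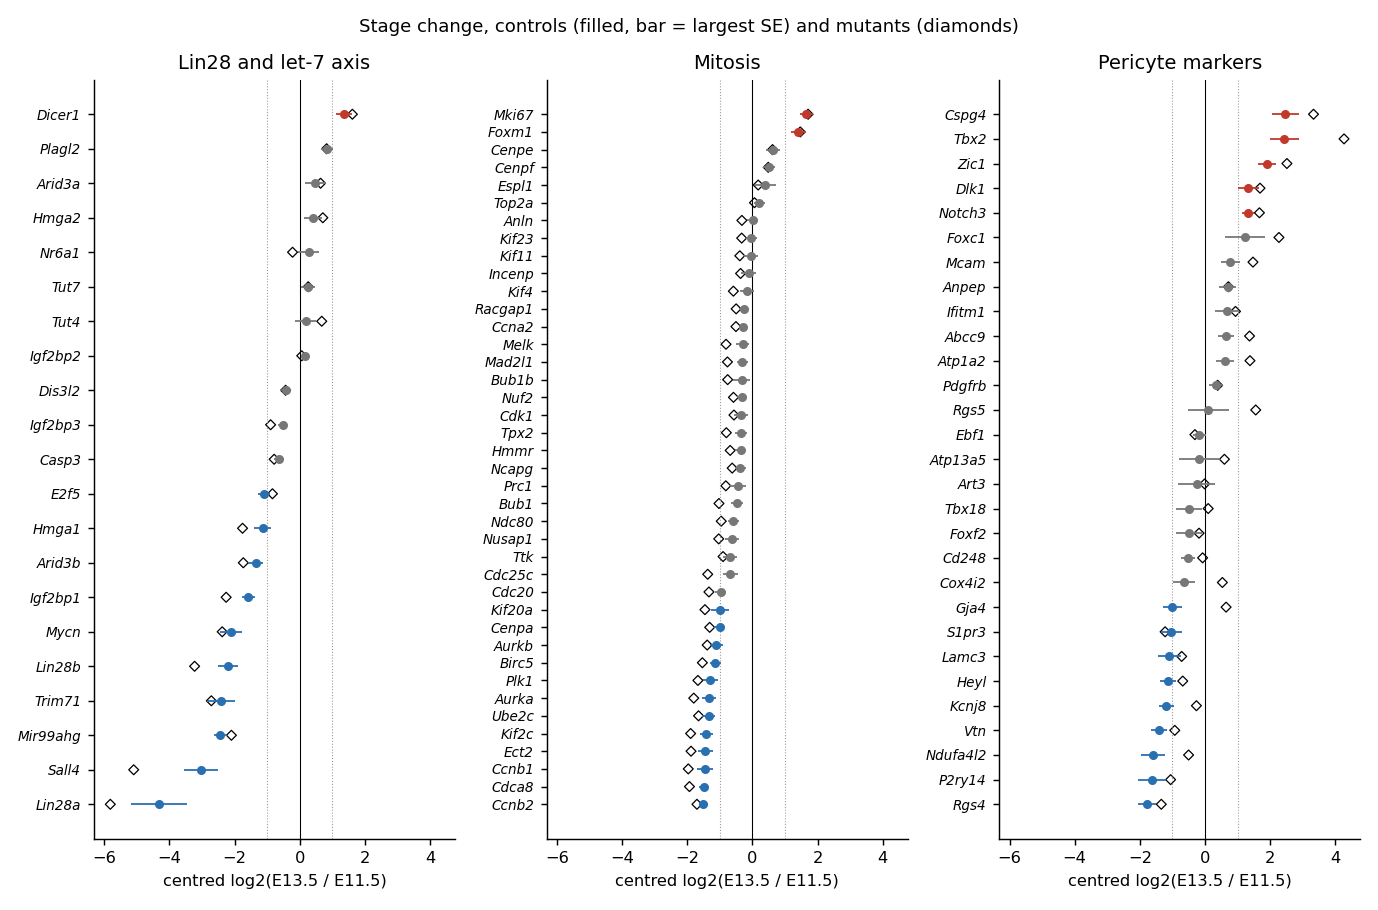
Filled points give the centred log2 change of each member in controls, with a bar of 1 largest SE on each side (red called higher, blue called lower, grey not called), and open diamonds the change in mutants. In the Lin28 and let-7 list most called points lie left of -1, in the mitosis list Mki67 and Foxm1 lie right of 1 apart from the rest, and the pericyte markers spread to both sides.

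Genes of cartilage and bone formation were among the largest increases. Of 19 measured markers, 14 were called higher and 2 lower, with a median of 1.59, or 0.96 with 9 higher and 2 lower when length-matched, and their median rank went from the 77.1st percentile to the 91.5th. Skeletal and mesenchymal genes thus ranked high in cells labelled pericytes, so the label is kept here as the name of the sorted population and not of each cell in it. Acan, the core protein of the cartilage proteoglycan aggrecan, had the largest increase of all named genes. Its mean went from 124 at E11.5 to 11294 at E13.5, a change of 6.08 (SE 0.87, adjusted p = 4.4e-11), and it lies on chromosome 7 at 79053483 to 79115099, plus strand (mm10).

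The transcription factors of bone cells followed in the same direction. Runx2, required for the osteoblast lineage, went from 466 to 5328 (change 3.08, SE 0.79), and Sp7, which acts downstream of it, from 92.4 to 1715 (3.78, SE 0.46). Prrx2, a homeobox gene of craniofacial mesenchyme, went from 223 to 1669. Runx2 overlaps Supt3 and antisense genes in the annotation. Alpl, the alkaline phosphatase that mineralizing cells carry, went from 31.1 to 1536, a change of 5.19 (SE 0.63), and was the same size when length-matched, 5.15. The 2 markers that were lower are transcription factor genes of skeletal progenitors: Sox9 from 14116 to 7078 (-1.43, SE 0.20) and Msx1 from 10635 to 2511 (-2.51, SE 0.26). Matn1, a cartilage matrix gene listed only in the E13.5 table, had a mean of 2810 there.

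Fibroblast and meninges markers were higher in 9 and lower in 1 of 22, with a median of 0.95 (0.63 when length-matched). Besides Alpl these were led by Aldh1a2, the retinoic acid synthesis enzyme of the meninges, from 99.0 to 968 (change 2.86), and the matrix calcification inhibitor gene Mgp, from 69.8 to 467 (2.31). Cdh1, which encodes E-cadherin and belongs to the arachnoid barrier as well as to epithelia, went from 45.6 to 304. The exception was Nnat, neuronatin, an imprinted gene, which fell from 21971 to 8197, a change of -1.85 (SE 0.23). Cxcl14, a chemokine listed only in the E13.5 table, had a mean of 4725.

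Collagens were higher almost as a class. Fibrillar and beaded-filament collagen genes were called higher in 17 of 20 and lower in 0, with a median of 2.14, or 1.25 when length-matched, and all 20 lay above 0. Col11a2, a minor fibrillar collagen of cartilage, went from 57.3 to 4396, a change of 5.83 (SE 0.81). Col12a1, which sits on the surface of fibrils, went from 2226 to 44025 (3.87, SE 0.33), Col6a3, a microfibrillar collagen chain, from 1210 to 22748 (3.80, SE 0.34) and Col14a1 from 204 to 3786 (3.78, SE 0.53). The main fibril chains Col1a1 and Col1a2 had means of 28766 and 17120 at E11.5 and 118865 and 81854 at E13.5. Their changes were 1.62 and 1.83. The length-matched change of Col1a1, a long GC-rich transcript, was 0.54. Col3a1 had a change of 0.52, the lowest of the list, and was not called.

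**Figure D4:**
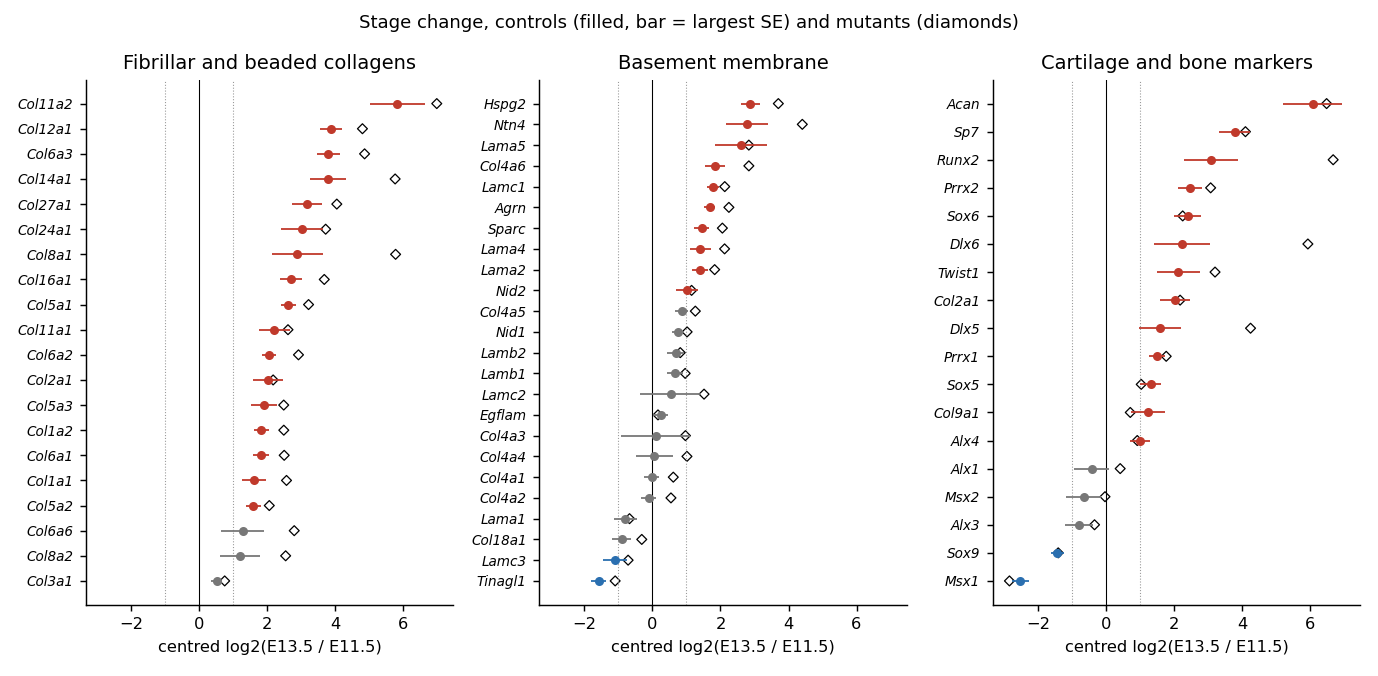
Filled points give the centred log2 change of each member in controls with a bar of 1 largest SE on each side (red called higher, blue called lower, grey not called), and diamonds the change in mutants. Members not reported here are not drawn. All 20 collagens lie above 0, basement membrane genes spread from Hspg2 at 2.88 to Tinagl1 at -1.58, and Sox9 and Msx1 stand apart from the other cartilage and bone markers.

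The enzymes that process collagen were higher in 8 and lower in 0 of 24 (median 0.62, length-matched 0.51). Adamts2, which removes the amino-terminal propeptide of procollagen, went from 212 to 3167 (change 3.47, SE 0.48). Bmp1, which removes the carboxy-terminal propeptide, went from 940 to 5516 (2.12, SE 0.21), and the prolyl 3-hydroxylase gene P3h3 from 634 to 4761 (2.48, SE 0.43). Adamts14, a related propeptidase, went from 97.2 to 580.

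Elastic fibre genes were higher in 9 and lower in 1 of 19 (median 0.71, length-matched 0.47). Eln, which encodes tropoelastin, went from 233 to 3567, a change of 3.51 (SE 0.43). The latent TGF-beta binding proteins, which tether latent TGF-beta to the matrix, were higher with it: Ltbp2 from 12 to 363 (4.48), Ltbp3 from 202 to 3052 (3.48) and Ltbp1 from 306 to 4024 (3.28, SE 0.22). Mfap2, a microfibril protein, was lower, from 7482 to 3461, a change of -1.54 (SE 0.19). Small leucine-rich proteoglycans, which bind collagen fibrils, were higher in 6 and lower in 0 of 12, with a median of 1.18 and a larger length-matched median of 1.48. Prelp went from 119 to 1040, Podn from 26.7 to 215, Kera, keratocan, from 33.0 to 247, and Bgn, biglycan, from 3795 to 14987.

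Matricellular proteins, which modulate cell adhesion, were higher in 10 and lower in 1 of 20 (median 1.05, length-matched 0.76). Tnc, tenascin C, went from 1870 to 19604 (change 2.96, SE 0.73), and Fn1, fibronectin, from 7473 to 68260 (2.76, SE 0.32). Postn, periostin, went from 1452 to 10213 (2.38), and Vcan, the proteoglycan versican, from 9345 to 64292 (2.35, SE 0.15). Spon2 was lower, from 285 to 152. Matrix proteases and their inhibitors were higher in 14 and lower in 1 of 31 (median 0.83, length-matched 0.75). The plasminogen activators took opposite directions: Plau, urokinase, went from 7.26 to 295 (4.91, SE 0.77), and Plat, the tissue-type activator, from 3435 to 1282 (-1.85, SE 0.26). The gelatinase gene Mmp9 went from 104 to 1123.

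Basement membrane genes were split. Of 24, 10 were higher and 2 lower, with a median of 0.72 that became -0.20 when length-matched, with 3 higher and 6 lower. Hspg2, perlecan, went from 780 to 7740 (change 2.88, SE 0.28, length-matched 1.40). Ntn4 went from 19.2 to 177, Lama5, a laminin chain of mature vessels, from 13.9 to 114, and Col4a6 from 85.9 to 416. Tinagl1 went from 218 to 98.0 (-1.58, SE 0.23) and the laminin chain gene Lamc3 from 2045 to 1295 (-1.09, SE 0.35). Col4a1 and Col4a2, the main type IV collagen chains of vessel walls, did not pass. Integrins, the receptors for these proteins, were higher in 3 and lower in 0 of 17, a share near the 18.4% of all members, with a median of 0.45 and of -0.19 when length-matched. Itga10, a collagen receptor of chondrocytes, went from 12.5 to 261 (3.96, SE 0.70), Itgb5 from 825 to 4806 and Itga9 from 813 to 3683.

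TGF-beta signalling works through a ligand, a type II and a type I receptor, SMAD proteins and target genes that feed back on it. Of 25 component genes, 9 were higher and 0 lower (median 0.71, length-matched 0.18). The ligand gene Tgfb1 went from 34.8 to 334 (change 2.83, SE 0.52), and Inhba, the activin A subunit, from 159 to 1139 (2.41, SE 0.56). The type I receptor Tgfbr1, floxed in these animals, had means of 4609 and 5700 and a change of -0.13 (SE 0.28). Targets and feedback genes were higher in 11 and lower in 0 of 24, with a median of 0.90 and of 0.79 when length-matched. Besides Ltbp2, Fn1 and Postn, given above, they hold Smad7, the inhibitory SMAD, at 317 and 1068 (change 1.32, SE 0.35). The matrix genes are counted in both lists.

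BMP ligands, antagonists and targets were higher in 14 and lower in 3 of 31 (median 0.99, length-matched 0.77). The ligand gene Bmp6 went from 58.3 to 813 (change 3.37, SE 0.61). An antagonist gene and a modulator gene were higher beside it, Grem1 from 44.6 to 498 (3.05) and the modulator Bmper from 85.3 to 1119 (3.28). The BMP target genes Id2 and Msx1 were lower. Id2, which encodes an inhibitor of helix-loop-helix factors, went from 6756 to 2730, a change of -1.74 (SE 0.16).

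Notch genes were called in both directions. Of 17, 4 were higher and 3 lower, near the 18.4% and 13.7% of all members, with a median of -0.09, or -0.29 with 0 higher and 5 lower when length-matched. The receptor gene Notch2 went from 1906 to 11014 (change 2.10, SE 0.23, length-matched 0.91), Notch4 from 39.1 to 129 and the ligand gene Jag2 from 45.3 to 128. When length-matched, Notch3, Notch4 and Jag2 were at -0.16, -0.18 and -0.0078. The target genes encode transcriptional repressors. Hes1 went from 1161 to 465 (-1.75, SE 0.23, length-matched -1.28), Hes5 from 94.0 to 13.6 (-3.23, SE 0.65) and Heyl, a mural target, from 1706 to 1042 (-1.14, SE 0.24).

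Wnt genes were higher in 16 and lower in 2 of 34, with a median of 0.90 and of 0.83 when length-matched. The ligand gene Wnt11 went from 66.4 to 842 (change 3.23, SE 0.40) and Wnt4 from 21.5 to 227 (2.97). The receptor gene Fzd8 went from 53.0 to 1123 (3.97, SE 0.51) and Notum, a secreted inhibitor, from 5.90 to 56.6. The antagonist gene Dkk1 was lower, from 240 to 146, as was the feedback inhibitor Nkd2, from 2012 to 1129 (-1.27, SE 0.27). In the list of PDGF, VEGF and angiopoietin genes 7 were higher and 3 lower of 27, against 18.4% and 13.7% of all members. Their median was 0.68, or 0.43 when length-matched. Vegfa, the main angiogenic growth factor, went from 260 to 3282 (3.23, SE 0.34) and Vegfb from 151 to 740. Angpt2, the antagonist of the endothelial TIE2 receptor, went from 416 to 217 (-1.37, SE 0.27) and Adm, adrenomedullin, from 83.7 to 33.8.

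Insulin-like growth factor genes were called higher in 9 and lower in 0 of 14, with a median of 1.79 (1.17 when length-matched). Igf2, the fetal growth factor, went from 15538 to 167133, a change of 3.00 (SE 0.27), and H19, the noncoding RNA of the same imprinted cluster, from 11026 to 136377 (3.20, SE 0.38). Igfbp5, a binding protein, went from 4268 to 39662 (2.78, SE 0.21), and Pappa2, a protease that frees the factor from binding proteins, from 186 to 3007 (3.58, SE 0.43). Igf2 lies on chromosome 7 at 142650766 to 142666816, minus strand. The wider list of imprinted growth genes was higher in 14 and lower in 2 of 22 (median 1.32, length-matched 0.67). Zim1 went from 144 to 4823 (4.64, SE 0.40) and Plagl1, a zinc finger gene of the imprinted network, from 1388 to 10155 (2.44). Mest was lower, as Nnat was, and went from 37295 to 21279 (-1.24, SE 0.19).

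Retinoic acid genes were higher in 5 and lower in 2 of 18, against 18.4% and 13.7% of all members. Their median was -0.0014 (length-matched 0.08, with 3 higher and 2 lower). The synthesis enzymes Aldh1a2 and Aldh1a3 were higher, the latter from 27.0 to 223. The degrading enzymes split, with Cyp26b1 from 182 to 2147 (change 3.13, SE 0.41) and Cyp26a1 from 265 to 66.9 (-2.42, SE 0.82). The receptor genes split too, with Rxra from 791 to 4279 and Rarb, itself a target of the pathway, from 2052 to 816 (-1.76, SE 0.41).

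Axon guidance genes, which also steer vessels, were higher in 17 and lower in 0 of 29. Their median was 1.09 and 0.41 when length-matched, with 6 higher, and their median transcript length was 5930 bases. Ntn1, netrin 1, went from 396 to 4087 (change 2.94, SE 0.25), Sema3d from 148 to 1194 (2.58) and the ephrin receptor gene Ephb3 from 452 to 3300 (2.44, SE 0.20). Genes of vessel tone were higher in 13 and lower in 3 of 31 (median 0.70, length-matched 0.60). The calcium channel gene Cacna1c went from 324 to 2347 (2.42, SE 0.24), the adrenergic receptor gene Adra2a from 124 to 1089, the vasopressin receptor gene Avpr1a from 5.17 to 44.0 and the phosphodiesterase gene Pde1a from 13.8 to 129. Trpc6, a cation channel of vascular smooth muscle, went from 90.4 to 25.6 (-2.25, SE 0.42) and Kcnmb1, the smooth muscle subunit of the BK channel, from 32.9 to 9.20.

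Transporter genes were higher in 4 and lower in 1 of 22, a share of higher genes near the 18.4% of all members, with a median of 0.29 and of -0.04, with 2 in each direction, when length-matched. The water channel gene Aqp1 went from 316 to 2606 (change 2.61, SE 0.79). Chemokine and cytokine genes were higher in 4 and lower in 0 of 14 (median 0.62, length-matched 0.64), among them the receptor gene Cxcr4, from 29.3 to 195, and the alarmin gene Il33, from 20.3 to 96.0. Complement and defence genes were higher in 4 and lower in 0 of 20, again near the share of all members (median 0.55, length-matched 0.40 with 6 higher and 1 lower), with C1ra from 3.91 to 53.0 and C1s1 from 19.7 to 70.4. The complement genes were near the floor at E11.5, and the SE of C1ra was 0.95.

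Transcription factors of mesenchyme and mural cells were higher in 13 and lower in 4 of 39 (median 0.55, length-matched 0.29). Zic2 went from 211 to 2799 (change 3.29, SE 0.33) and Klf4 from 486 to 4317 (2.72, SE 0.43). Foxs1, a pericyte factor, was lower, from 83.0 to 45.9, as was Tbx20, from 35.7 to 10.4. The nuclear factor I family, which accompanies late embryonic timing in several tissues, was higher in 3 of 4. Nfix went from 141 to 7053, a change of 5.21 (SE 0.60, length-matched 4.14), Nfib from 2119 to 11850 (2.05, SE 0.28) and Nfic from 1724 to 6002 (1.37, SE 0.24), while Nfia had a change of 0.13. Nfix lies on chromosome 8 at 84699876 to 84800344, minus strand, where the annotation also places Lyl1. Of 30 Hox genes listed, 2 were members. Hoxd1 went from 4.66 to 267, and Hoxa2 had means of 18 and 122 with an SE of 1.69 and was not called.

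The Lin28 and let-7 axis is a timing switch of early embryos: the RNA-binding proteins LIN28A and LIN28B block the maturation of let-7 microRNAs, and let-7 in turn represses Lin28 and other early genes. Of 21 genes of the axis, 10 were called lower and 1 higher, with a median of -0.62 and of -0.70 when length-matched. Lin28a had a mean of 59.4 at E11.5 and 4.02 at E13.5, a change of -4.32 (SE 0.85), and Lin28b means of 424 and 125 (-2.20, SE 0.31). Lin28a lies on chromosome 4 at 134003330 to 134018841, minus strand (mm10). Trim71, another let-7 target, went from 482 to 122 (-2.41), Mycn from 952 to 298 (-2.11) and Sall4, a zinc finger gene of early embryonic cells, from 175 to 28.9 (-3.03, SE 0.51). Igf2bp1 went from 12465 to 5611 and Hmga1 from 2495 to 1528, while Hmga2, a let-7 target too, was not called. The member that was higher is Dicer1, the nuclease that cuts microRNA precursors, from 1287 to 4478, a change of 1.37 that was 0.32 when length-matched.

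Mir99ahg, the host gene of a let-7 cluster, was lower too, from 1626 to 406, a change of -2.43 (SE 0.21). Its annotated span, chromosome 16 at 77236317 to 77773427 on the plus strand, holds 3 microRNA genes, whose mature 5-prime sequences (RefSeq, GRCm38.p6) are shown because they are what this transcript can give rise to. The capitals mark the seed, bases 2 to 8, which pairs with target RNAs.
mmu-let-7c-5p: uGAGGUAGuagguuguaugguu
mmu-miR-99a-5p: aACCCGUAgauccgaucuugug
mmu-miR-125b-5p: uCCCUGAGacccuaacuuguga
The 3 seeds differ from each other, so no 2 of them share a seed group. Mature microRNAs were not measured here, and the host transcript alone does not give their level. The precursor hairpin of let-7c-1 carries GGAG, the letters in capitals, at 2 places. The first lies in the loop between the mature sequences, where LIN28 proteins are known to bind this motif. The second lies past the end of the mature 3-prime sequence and is only a match of letters.
let-7c-1 hairpin: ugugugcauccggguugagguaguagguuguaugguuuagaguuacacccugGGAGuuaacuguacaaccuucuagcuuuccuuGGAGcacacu

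In a list of other early embryonic genes 4 were higher and 1, Sall4, lower of 12 (median 0.57, length-matched 0.0020 with 4 higher and 3 lower). The higher ones were Rtl1, from 37.3 to 526, L1td1, from 14 to 119, Peg10, from 2203 to 13945, and Sall1, from 27.9 to 149. Rtl1 and Peg10 are imprinted genes of placenta and embryo.

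Cell cycle genes were lower in part. DNA replication genes were lower in 10 and higher in 1 of 40, against 13.7% of all members called lower, with a median of -0.56 (length-matched -0.53), and 37 of 40 lay below 0. Rrm2, which makes deoxynucleotides, went from 4559 to 1697 (change -1.86, SE 0.23), Fen1, a flap nuclease, from 2297 to 851, Ccne2, cyclin E2, from 1152 to 449 and Rfc4, a clamp loader subunit, from 405 to 174. The member that was higher is E2f1, the transcription factor of this gene set, from 131 to 716, a change of 2.02 (SE 0.34). Mitosis genes were lower in 12 and higher in 2 of 40, with a median of -0.36 (length-matched -0.37). Ccnb2 and Ccnb1, the mitotic cyclins, went from 1490 to 710 (-1.50, SE 0.15) and from 3108 to 1541 (-1.44, SE 0.24). Cdca8, of the chromosomal passenger complex, went from 1625 to 783 and Ect2, a cytokinesis gene, from 835 to 415. In the other direction, the proliferation marker Mki67 went from 3165 to 13482 (1.66, SE 0.21, length-matched 0.68) and Foxm1, the factor that drives mitotic genes, from 602 to 2159 (1.41, SE 0.23, length-matched 0.86).

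Promoters of mitotic genes are known for a CCAAT box and for the cell cycle genes homology region, here TTTGAA, each searched on both strands in the 300 bases from 250 before to 50 after the annotated start (RefSeq, GRCm38.p6). The CCAAT letters were in 25 of the 33 mitosis promoters that could be matched and in 38.8% of the 11867 member promoters, and TTTGAA was in 25 of 33 and in 11.99%. Among the mitosis genes called lower they were in 8 of 10 each, so the list as a whole holds them at about the same share. Over all members, TTTGAA was in 8.96% of the promoters of higher genes and in 14.2% of those of lower genes, and CCAAT in 33.3% and 43.4%. A match is a string of letters and not a measured binding site. The stretches below run from 120 bases before to 30 after the start, with matches on either strand in capitals, and are shown because Ccnb2, Cdca8, Ect2 and Ccnb1 were lower while Mki67 was higher. In the Cdca8 stretch the TTTGAA shares its last base with a CCAAT match of the other strand.
Ccnb2 (chr9:70421525-70421674, minus strand): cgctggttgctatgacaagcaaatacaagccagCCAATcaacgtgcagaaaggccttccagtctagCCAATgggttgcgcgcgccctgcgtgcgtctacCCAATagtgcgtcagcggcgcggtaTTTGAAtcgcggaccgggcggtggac
Cdca8 (chr4:124936888-124937037, minus strand): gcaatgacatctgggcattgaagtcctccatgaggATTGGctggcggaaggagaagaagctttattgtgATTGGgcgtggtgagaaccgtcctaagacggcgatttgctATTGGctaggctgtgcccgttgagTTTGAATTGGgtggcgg
Ect2 (chr3:27153849-27153998, minus strand): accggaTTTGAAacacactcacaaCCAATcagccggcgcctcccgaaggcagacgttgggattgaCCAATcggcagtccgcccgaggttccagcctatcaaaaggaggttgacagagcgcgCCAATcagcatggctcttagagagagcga
Ccnb1 (chr13:100786457-100786606, minus strand): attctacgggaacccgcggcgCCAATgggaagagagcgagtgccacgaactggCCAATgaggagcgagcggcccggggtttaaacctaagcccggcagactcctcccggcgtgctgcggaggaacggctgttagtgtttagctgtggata
Mki67 (chr7:135716350-135716499, minus strand): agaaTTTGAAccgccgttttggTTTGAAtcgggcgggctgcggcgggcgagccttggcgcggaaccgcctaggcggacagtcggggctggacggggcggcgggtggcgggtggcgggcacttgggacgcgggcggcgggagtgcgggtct
The printed Ccnb1 stretch holds 2 CCAAT matches and no TTTGAA. The printed Mki67 stretch holds 2 TTTGAA and no CCAAT, while its whole window of 300 bases holds 3 CCAAT matches.

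Brakes of the cell cycle were higher in 5 and lower in 3 of 20, not far from the 18.4% and 13.7% of all members. Their median was 0.37, or 0.50 with 4 higher and 1 lower when length-matched. The CDK inhibitor genes Cdkn2c and Cdkn1b went from 30.5 to 325 (change 2.98, SE 0.48) and from 405 to 1998 (1.87, SE 0.20), and Cdkn1c, an imprinted inhibitor, from 6809 to 22837. The stress gene Gadd45g went from 992 to 367 and Cdkn2d from 660 to 374. Replication-dependent histone genes were lower in 6 and higher in 1 of 18 (length-matched 5 and 3), led by H2ac8 from 527 to 100. Their RNAs lack the poly(A) tail by which messenger RNA is often selected.

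Nuclear and mitochondrial genes of respiration moved apart. Nuclear subunits of the respiratory chain were called lower in 20 of 40 and higher in 0, with a median of -1.02, and 39 lay below 0. When length-matched the median was -0.55, with 11 lower, and their median transcript length was 1232 bases. Ndufa2, of complex I, went from 1203 to 384 (-2.08, SE 0.24), Uqcrq, of complex III, from 1623 to 595 (-1.88, SE 0.20), Ndufa1 from 586 to 217 and Ndufb8 from 2070 to 800. Of the 12 genes of the mitochondrial genome 6 were higher and 0 lower, with a median of 0.96 and of 1.37 when length-matched. The oxidase subunit gene mt-Co1 went from 44634 to 203156 (1.75, SE 0.33) and mt-Nd3 from 338 to 3739 (3.04, SE 0.39).

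Glycolysis and hypoxia genes were higher in 5 and lower in 7 of 34, against 18.4% and 13.7% of all members (median -0.08, also -0.08 length-matched). The enolase genes Eno1 and Eno3 went from 8780 to 3871 and from 479 to 142, and the oxygen sensor gene Egln3 from 40.8 to 229. Cholesterol synthesis genes were lower in 5 and higher in 1 of 24, against 13.7% and 18.4% of all members (median -0.58, length-matched -0.71). Pmvk went from 743 to 383 (-1.39, SE 0.15) and Fdps from 1190 to 623 (-1.36, SE 0.22). Ribosomal protein genes were higher in 24 and lower in 2 of 73 (median 0.77, length-matched 1.13), with 43 higher when length-matched and 42 with the housekeeping median at 0. Many processed pseudogenes resemble them, and how reads were divided among such copies is not given, so their values are uncertain. Ribosome biogenesis genes had a median of 0.05 (length-matched -0.21), with 2 higher and 3 lower of 30.

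Among called genes above the median level and outside predicted genes, the 10 largest increases and decreases hold several genes not given above. Increases included Bc1, a small noncoding RNA of neurons, from 12.7 to 916, the chromatin remodelling gene Srcap from 86.3 to 5641, and Iglon5, a neuronal adhesion gene, from 13.6 to 821. The postsynaptic gene Shank1, from 26.4 to 1213, stood beside them, as did Susd5, from 45 to 2387. Srcap overlaps 4 annotated genes, and the counting was not stated to use strand. Among the decreases, Dpysl2, a microtubule-associated protein of growing neurites, went from 24683 to 3329, a change of -3.32 (SE 0.18). Rpgrip1, a ciliary gene that overlaps Supt16, went from 1591 to 254, Tspan12, a coreceptor of norrin signalling, from 913 to 152, Tm2d1 from 498 to 97.0 and Frat1, a Wnt pathway gene, from 523 to 105. Anxa3 went from 1090 to 224, Gsdme, a gasdermin, from 2644 to 555 and Pttg1, securin, from 1043 to 221.

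**Figure D5:**
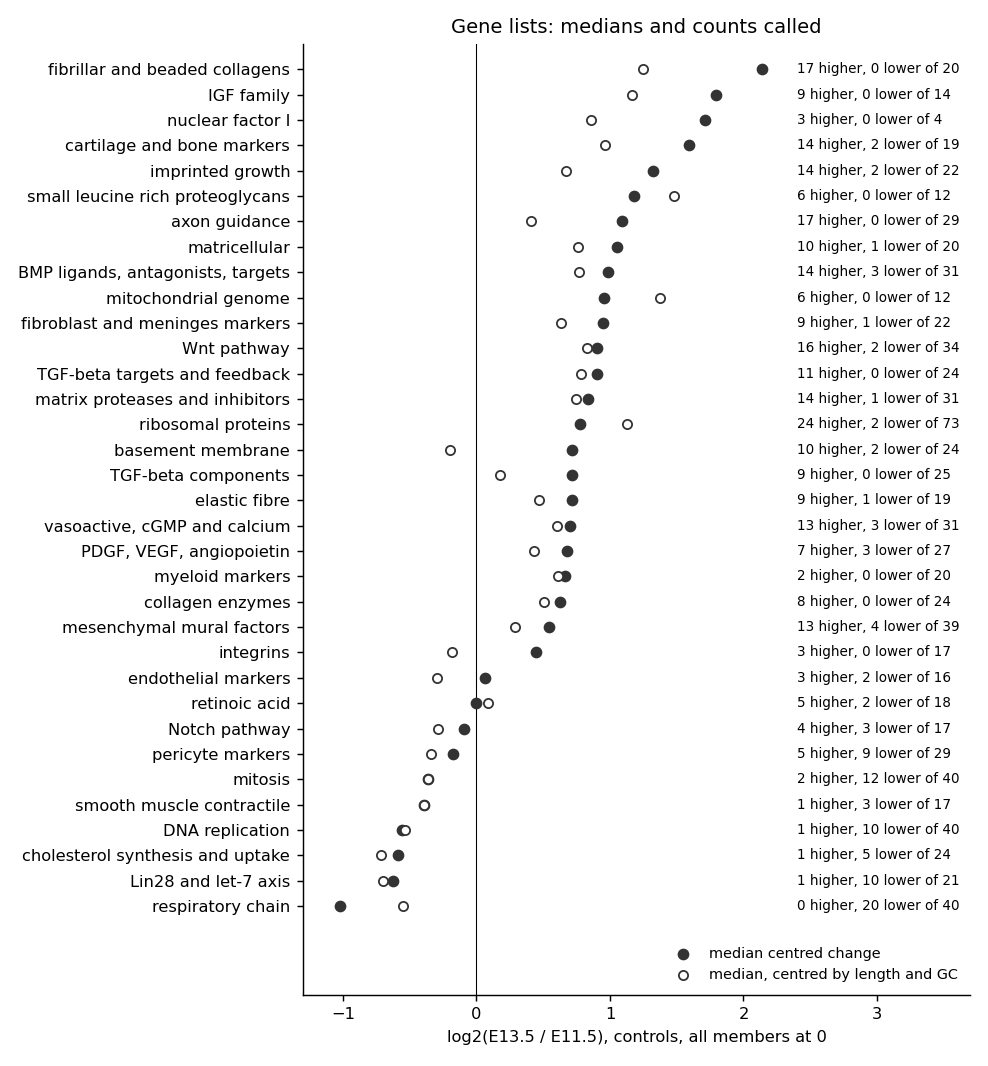
For 34 of the 52 gene lists, filled points give the median centred log2 change of the members in controls and open points the median with the centre set within bins of length and GC, and the text gives the counts called. The collagens are at 2.14 and 1.25, basement membrane and integrin genes cross 0 between the 2 centres, and the respiratory chain is at -1.02 and -0.55.

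Markers of other cell types that the sort could hold were mostly not called, as were members in general, of which 32.1% were called. Of 16 endothelial markers 3 were higher and 2 lower, with a median of 0.06, and the defining genes spread, with Cdh5 from 252 to 876 (change 1.36, SE 0.48), Erg from 203 to 1868 (2.77, SE 0.55) and Plvap from 266 to 53.1 (-2.75, SE 0.66). Their median rank was the 38.0th percentile at E11.5 and the 31.7th at E13.5. Myeloid markers were higher in 2 and lower in 0 of 20 (median 0.67), with Mrc1, a marker of border macrophages, from 295 to 1610 (2.02, SE 0.41). The myeloid count moved with the setting: 5 were higher when length-matched and 8 with the housekeeping median at 0. In the mutant libraries 15 were higher, with a median of 1.64. Neuron markers were higher in 1 of 15, Dcx from 391 to 1106, and erythroid markers in 0 of 4. Neural progenitor markers were higher in 3 and lower in 2 of 13, with Emx2 from 52.1 to 366 and Hes5 lower. Schwann and neural crest markers were higher in 4 and lower in 2 of 10, with Erbb3 from 31.7 to 358 and Ngfr from 3675 to 1822, and Sox10, listed only in the E13.5 table, had a mean of 289 there. Skeletal muscle progenitor genes split, with Pax3 from 23.9 to 354 and Myf5 from 89.2 to 10.1. Epithelial markers were higher in 2 and lower in 1 of 10, with Aqp1 from 316 to 2606, Cdh1 from 45.6 to 304 and Krt8 from 108 to 46.6. Krt5, Cldn6, Krt14 and Cldn3, listed only in the E13.5 table, had means of 84.2, 58.7, 29.8 and 20.7 there. Summed over its measured members, as a percent of all member means without the ribosomal RNA gene, the endothelial list stood at 0.0207% at E11.5 and 0.0257% at E13.5, the myeloid list at 0.0246% and 0.0359%, the neuron list at 0.0512% and 0.0464% and the skeletal muscle list at 0.00701% and 0.00718%. The neural progenitor list stood at 0.0709% and 0.128%, the Schwann list at 0.0346% and 0.0206%, the epithelial list at 0.0223% and 0.0323% and the erythroid list at 0.000917% and 0.000439%. The neural progenitor sum and its rise rest largely on 1 gene, Vim. Its mean was 5565 of a summed 10813 at E11.5 and 21047 of 30043 at E13.5. The erythroid sum rests on 4 members and leaves out the haemoglobin genes Hbb-bs, Hbb-bt and Hba-a2, listed only in the E13.5 table with means of 137, 86.8 and 77.2, so it gives no direction for these cells. No measured marker of these lists was at 0 at either stage. For comparison, the pericyte list stood at 0.321% and 0.300% and the cartilage and bone list at 0.355% and 0.598%. The part of such cells in the results was not tested.

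Immediate early genes, which tissue dissociation is known to induce, were higher in 5 and lower in 1 of 30 (median 0.39, length-matched 0.37). The share of higher genes was near the 18.4% of all members. Klf2 went from 168 to 1699 (change 2.91, SE 0.68), Fosl2 from 357 to 2346 and Egr3 from 53.7 to 302, while Ier2 went from 8609 to 3946. Housekeeping genes had a median of -0.32, with Eef1a1 higher, from 23308 to 124311, and Actb lower, from 130840 to 74926 (-1.24, SE 0.15).

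The stage changes of controls and mutants differed in 226 members (1.13%), by the difference of the 2 centred changes over the same SE with Benjamini-Hochberg adjustment. It was above 0, a larger value in mutants, in 210 and below 0 in 16. Xist differed between the E13.5 groups, as given above, so genotype and sex cannot be told apart at that stage. The part of sex in these differences was not tested. Runx2 changed by 3.08 in controls and 6.68 in mutants, Nfix by 5.21 and 8.80, Inhba by 2.41 and 5.36, and Sall4 by -3.03 and -5.10. The difference for Kcnj8, -1.19 in controls and -0.26 in mutants, went the other way, toward no change. The difference between stage changes is the same number as the difference between the mutant-to-control ratios of the 2 stages, and the value it takes includes the E11.5 means of both groups. Acan, with changes of 6.08 and 6.49, Myocd, with -4.54 and -4.27, and Dpysl2, with -3.32 and -3.54, did not pass this test.

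Some calls given above ended under another centre. When length-matched, the changes of Cspg4, Col4a6, Itga9, Notch2, Rxra, Nfic, Dicer1, Mki67, Foxm1 and Dcx fell below 1, between 0.29 and 0.99, and those of Myl9, Mfap2, Spon2, Dkk1, Cdkn2d and Actb lay between -0.85 and -0.97. With the housekeeping median at 0 the calls of Kcnj8 (-0.87), Myl9, Lamc3, Nkd2, Dkk1, Foxs1, Mest, Cdkn2d and Actb ended, and with the summed means set equal those of Myh11, Dcx, Notch4 and Jag2. In the mutant libraries the changes of Kcnj8 (-0.26), Ndufa4l2 (-0.50), Vtn (-0.93), Lamc3 (-0.72), Dkk1 (-0.88), Trpc6 (-0.76), Tbx20 (-0.99) and Foxs1 (-0.47) did not reach the threshold.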

How the data were processed

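Messenger RNA libraries of sorted cells were analysed from the authors' deposited tables of mutant against control, 1 per stage. The submitters' processing notes list Bowtie2, Partek and DESeq2, give no version of any, and name the build mm10. The counting step is not given in the sources used here. Per the file headers, the authors give for each gene a p-value, a ratio of mutant to control and a group mean, read here as a signal of normalized reads, so depth per library is unknown. The deposited p-value and ratio gave the SE of each log2 ratio (log2 ratio over normal deviate of p, which assumes a Wald test). The squares for both stages were summed, which bounds the error of the control comparison from above, since a ratio is no more precise than its control mean. The bound holds no difference between batches, and the normal test is an approximation.

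The members and the 52 gene lists were chosen with earlier results of these data known. The named genes are 6 fixed ones (Pdgfrb, Rgs5, Cspg4, Kcnj8, Abcc9 and Tgfbr1), the 10 largest called changes in each direction among genes above the median level (no predicted, sex-linked or haemoglobin genes), and in each list the largest called changes; other list members and Xist were named after their values were seen, and 234 genes fit the rule, of which some are not reported here. Of 229 with a position, 106 overlap another annotated gene. Positions, lengths and GC come from GENCODE vM21 (97.5% of members matched), sequences from RefSeq. A set of 11867 member symbols matched a promoter, the first listed being used. Alternatives were another centre, level floor, error, fold, rank, or the mutant libraries. The steps were tested on simulated data. Python 3.11.15, pandas 2.3.3, scipy 1.17.1 and matplotlib 3.10.9 were used.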

Additional observations from a re-analysis of the deposited data

Results flagged for a closer look

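The stage change differed between mutants and controls in the 25 named genes given here (difference of the centred log2 changes, mutant minus control, Benjamini-Hochberg adjusted p under 0.05). The largest differences were those of Runx2, 3.60, Nfix, 3.59, and Inhba, 2.95. Bmper differed by 2.60 and Grem1 by 2.38. The retinoic acid genes Cyp26b1 and Aldh1a2 differed by 2.04 and 2.02, Tgfb1 by 2.02, and the matrix genes Col14a1 and Eln by 1.98 and 1.62. Among cell cycle inhibitors Cdkn2c differed by 1.95 and Cdkn1c by 1.87. Transcription factor genes were Erg with 1.92, Tbx2 with 1.83, Emx2 with 1.79, Klf4 with 1.63, Nfib with 1.19 and Nfic with 0.997. The channel genes Trpc6, Kcnj8 and Cacna1c differed by 1.49, 0.921 and 0.867, the protease gene Bmp1 by 0.861 and the binding protein gene Igfbp5 by 0.811. Mest, with -0.723, and Sall4, with -2.07, had the lower value in mutants.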

How the results depend on the processing

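The counts of 3683 higher and 2734 lower genes stayed within 1.5 times under most alternatives. With the summed means set equal 4444 were lower, and with the housekeeping list at 0 1487 were lower. A log2 change of at least 2 left 1203 higher and 577 lower. Protein-coding genes alone and centring by length and GC were both chosen after seeing the data. Among protein-coding genes 1757 were lower of 14050 tested. The cause was not tested except for the stricter fold and the smaller set, which are built to call fewer. Of 2792 pairs of a named gene and an alternative, 2566 kept direction and side of the threshold, 220 lost the call, 2 gained it and 4 reversed, all under centring by length and GC: Myh11 -0.19, Notch3 -0.16, Notch4 -0.18 and Jag2 -0.0078. No paired analysis was possible because the tables give 1 mean per group, and leaving out each sample could not be run for the same reason. The authors' means give no depth, so how far depth limits low genes is unknown.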

Other observations

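Promoters of other gene groups differed in their letters. An E2F site (TTTGGCGC or TTTCGCGC, both strands, 300 bases) was in 9 of 31 DNA replication promoters and in 1.53% of all 11867 member promoters, and in 0 of the 8 replication promoters whose genes were called lower. The ratio of observed to expected CpG had a median of 0.543 in the 15 fibrillar collagen promoters, 0.833 in 29 respiratory chain promoters, 0.878 in 33 mitosis promoters and 0.749 over all member promoters. A RUNX core (TGTGGT) was in 9.63% of the promoters of higher genes, 13.3% of those of lower genes and 12.2% of all.

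Genes listed at E13.5 alone, with a control mean at or above 10, numbered 998, and those listed at E11.5 alone 246. Among the former were the basement membrane gene Col15a1, with a mean of 365, the fetal myosin gene Myh8, with 325, the activin subunit gene Inhbb, with 221, the matricellular gene Ccn3, with 225, and the ligand gene Wnt2, with 127. Their E11.5 levels were not analysed here.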
